A study of Homo sapiens with 3 samples.

Results

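Protein phosphatase 2A (PP2A) subunits were followed at the transcript level in PANC-1, an established human pancreatic ductal carcinoma cell line. The genes were chosen by name: 10 symbols of the deposited count table, of 51136 in all, were taken, namely the catalytic subunits PPP2CA and PPP2CB, the scaffold subunits PPP2R1A and PPP2R1B, the B55 regulatory subunit PPP2R2A and the B56 regulatory subunits PPP2R5A, PPP2R5B, PPP2R5C, PPP2R5D and PPP2R5E. Each was found once, and the rule itself uses no measured value. The study used cantharidin, a PP2A inhibitor, together with antiangiogenic agents, and these 3 RNA-seq libraries hold control cells without an agent, cells given 200 μM ginsenoside Rg3 for 24 h and cells given 50 μM tamoxifen (TAM) for 24 h. Rg3 is a saponin of ginseng used as an antiangiogenic agent, and tamoxifen is an anti-oestrogen that the study used for its inhibition of protein kinase C. No library of cells given cantharidin was analysed here. The doses of the agents differ, all libraries come from the same line, and each condition has 1 library, so no difference below has a replicate check.

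PP2A is a serine/threonine phosphatase built from a scaffold (A) subunit, a catalytic (C) subunit and an exchangeable regulatory (B) subunit. The scaffold is a stack of helical repeats that holds the catalytic subunit at one end and the regulatory subunit at the other, and the regulatory subunit decides which phosphoproteins reach the active site and where in the cell the enzyme works. The A and C subunits are each encoded by a pair of closely related genes, while the B55 and B56 families hold several genes each. B56 enzymes are known for acting at centromeres, on beta-catenin turnover and on growth factor signalling, and B55 enzymes for reversing cyclin-dependent kinase phosphorylation at the end of mitosis. In tumours PP2A is known as a suppressor, since it removes activating phosphates from ERK, AKT and other growth kinases.

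The control library held 11300766 counted reads, the Rg3 library 12861693 and the TAM library 11321442, and 8043, 10684 and 7827 of these lay on the 10 PP2A genes. Since these are bulk samples, fewer cells expressing a gene and less of its RNA per cell cannot be told apart. Counts were divided by library size after TMM scaling (trimmed mean of M values), which set log2 fold changes 0.14 lower for Rg3 against control, 0.21 higher for TAM against control and 0.35 higher for TAM against Rg3 than division by library totals would. In these libraries fold changes followed the base composition of the transcripts. Spearman's rho between GC content and the log2 fold change was -0.81 for Rg3 against control (11696 genes with 50 counts or more) and 0.50 for TAM against control (11121 genes). All points share the same 2 libraries in each comparison, so these values describe the libraries and carry no p-value. Each PP2A gene is therefore given with the GC content of its longest transcript and with a second fold change, from which a smooth trend on GC content and then on length over all genes was removed. The 5 markers used for the line, KRT7, KRT8, KRT18, KRT19 and VIM, were present in every library with a summed level of 4307 to 7321 CPM (counts per 1000000 counted reads, here by library totals). The acinar markers (5 of 5) and islet markers (3 of 3) were at 0 throughout, where 0 observed reads leave room for 3 reads in a library of this size. Leukocyte and endothelial markers had at most 3 counts. Of the fibroblast markers, DCN and LUM had at most 2 counts, while COL1A1 had 1853 counts in control, 1005 with Rg3 and 734 with TAM, which made up nearly all of that list's summed 164, 78.3 and 64.9 CPM.

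Promoters of 6 of the genes are shown, so that both scaffold genes, the main catalytic gene and 3 B56 genes that stood differently across the libraries can be set side by side. They run from 250 bases before to 50 bases after an annotated start in RefSeq (GRCh38.p14), on the strand of the gene, 5′ to 3′. Capitals mark GC boxes (GGGCGG, the usual Sp1 recognition letters) and CCAAT boxes (CCAAT), read on both strands.

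PPP2CA, chr5:134226024-134226323, minus strand: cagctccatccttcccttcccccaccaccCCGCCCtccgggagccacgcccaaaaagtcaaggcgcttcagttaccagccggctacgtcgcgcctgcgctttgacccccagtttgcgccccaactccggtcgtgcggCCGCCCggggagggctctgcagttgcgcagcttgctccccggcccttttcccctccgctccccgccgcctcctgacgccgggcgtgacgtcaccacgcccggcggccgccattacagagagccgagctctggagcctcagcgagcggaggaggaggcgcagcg
PPP2R1A, chr19:52189802-52190101, plus strand: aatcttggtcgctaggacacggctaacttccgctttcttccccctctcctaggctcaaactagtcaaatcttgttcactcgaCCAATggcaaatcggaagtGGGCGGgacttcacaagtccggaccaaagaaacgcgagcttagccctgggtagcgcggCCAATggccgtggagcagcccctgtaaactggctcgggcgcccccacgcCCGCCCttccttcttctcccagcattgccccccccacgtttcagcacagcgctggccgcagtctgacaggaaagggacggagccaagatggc
PPP2R1B, chr11:111766340-111766639, minus strand: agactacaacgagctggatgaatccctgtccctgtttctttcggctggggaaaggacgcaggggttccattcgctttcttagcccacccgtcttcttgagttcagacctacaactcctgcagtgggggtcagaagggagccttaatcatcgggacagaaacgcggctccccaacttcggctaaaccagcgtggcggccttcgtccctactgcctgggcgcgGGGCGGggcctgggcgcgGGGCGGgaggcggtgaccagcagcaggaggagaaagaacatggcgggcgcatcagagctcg
PPP2R5A, chr1:212285160-212285459, plus strand: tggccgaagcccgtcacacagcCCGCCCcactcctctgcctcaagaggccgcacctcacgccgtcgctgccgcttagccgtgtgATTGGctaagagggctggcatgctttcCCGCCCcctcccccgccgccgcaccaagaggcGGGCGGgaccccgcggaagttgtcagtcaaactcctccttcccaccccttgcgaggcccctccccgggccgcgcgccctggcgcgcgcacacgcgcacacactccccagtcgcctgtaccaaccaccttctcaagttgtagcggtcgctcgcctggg
PPP2R5B, chr11:64924439-64924738, plus strand: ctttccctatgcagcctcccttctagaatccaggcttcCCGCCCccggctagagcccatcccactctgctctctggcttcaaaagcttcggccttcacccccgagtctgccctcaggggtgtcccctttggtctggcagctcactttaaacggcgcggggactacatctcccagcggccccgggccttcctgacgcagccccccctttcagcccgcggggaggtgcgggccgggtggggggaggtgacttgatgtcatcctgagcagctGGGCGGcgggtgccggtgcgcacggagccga
PPP2R5E, chr14:63543328-63543627, minus strand: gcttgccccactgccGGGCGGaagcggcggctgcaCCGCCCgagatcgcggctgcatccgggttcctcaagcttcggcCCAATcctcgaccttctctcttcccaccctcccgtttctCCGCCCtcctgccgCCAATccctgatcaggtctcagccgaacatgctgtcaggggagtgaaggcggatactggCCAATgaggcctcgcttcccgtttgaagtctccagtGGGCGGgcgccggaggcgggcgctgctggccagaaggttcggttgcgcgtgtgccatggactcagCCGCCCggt

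The promoter table matched 8 of the 10 genes, with 14 entries, and all 8 had a GC box in at least 1 entry. A GC box was in 9 of the 14 entries, against 45.0% of all 35116 promoters of the table, and a CCAAT box in 8 of 14, against 34.6%. The PPP2R5E promoter shown held 5 GC boxes and 3 CCAAT boxes, that of PPP2R5A 3 and 1, and that of PPP2R1A 2 and 2. PPP2R1B and PPP2R5B each had 2 GC boxes and no CCAAT box. The PPP2CA promoter carried 2 GC boxes and, left in lower case, the only match among the 14 entries to the cyclic AMP response element letters TGACGTCA, which 1.85% of all promoters hold. TATAAA was found in 1 entry (a second start of PPP2R5A) against 11.5% of promoters, and the ETS letters CCGGAAG in 1 entry of PPP2R5C against 10.3%. No entry held the NRF1 letters GCATGCGC, found in 3.05% of promoters. GC content of the 6 sequences shown ran from 60.0% in PPP2R1A to 71.0% in PPP2CA, above the median of 58.7% over all promoters. These matches describe the letters in these windows, and their part in the fold changes was not tested.

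Levels between genes were compared per kilobase of the longest transcript. In control cells the order was led by PPP2R5D at 55.1 scaled CPM per kilobase, followed by PPP2R1A at 48.1, PPP2CA at 25.2 and PPP2CB at 12.5. PPP2R5C (8.53) and PPP2R5B (8.06) came next and their counting intervals overlapped. PPP2R1B (4.83), PPP2R2A (4.47) and PPP2R5A (3.65) formed a run in which each neighbour overlapped the next, and PPP2R5E was lowest at 2.28. Control cells therefore contained the transcripts of every A, C and B56 gene. On this length scale 1 gene stood well above the others in the scaffold and B56 classes. With Rg3 the same gene led (PPP2R5D, 43.5), PPP2CA came next at 38.2, then PPP2R1A at 34.6. With TAM, PPP2R1A led at 66.7, and PPP2CB (23.3) and PPP2CA (23.2) had overlapping intervals. PPP2R5E was last in all 3 libraries. The order depends on the length used for each gene. With the union of exons, control levels were 20.7 for PPP2CA and 2.68 for PPP2R5C, and with the median protein-coding transcript they were 200.5 and 47.8. On that last scale PPP2R1A led in control at 234, and PPP2R5D stood at 61.4. With Rg3, PPP2R5D (48.5) then lay below PPP2R5C (81.2), so its lead within the B56 class was lost.

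**Figure D1:**
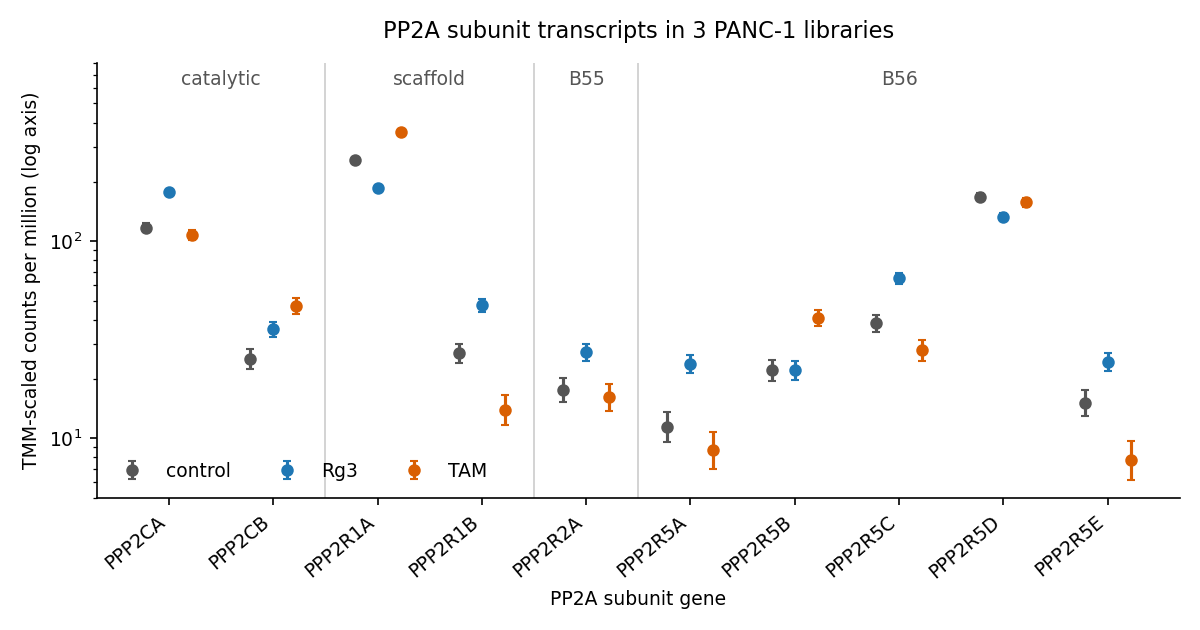
TMM-scaled CPM (log axis) of the 10 PP2A genes in the control, Rg3 and TAM libraries, with 1 library per condition and bars for the 95% Poisson interval of the count, which covers counting error only. PPP2CA, PPP2R1B, PPP2R2A, PPP2R5A, PPP2R5C and PPP2R5E were highest with Rg3, PPP2CB, PPP2R1A and PPP2R5B were highest with TAM, and PPP2R5D was highest in control at 168.

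Every gene was compared between pairs of libraries by the exact two-sided binomial test on its reads, with Benjamini-Hochberg adjustment over all genes that reached 10 counts in 1 or both, and all 10 PP2A genes passed that filter. Calls required both an adjusted p below 0.05 and a fold above 1.5 or below 0.67. This sets library against library, and variation between cultures does not enter it. Of the 10 genes, 6 were called higher with Rg3 than in control and 0 lower, where 20.5% of the 16487 genes compared were called higher and 15.8% lower. With TAM against control, 2 were called higher and 2 lower, where 14.0% of 16079 genes were called higher and 18.4% lower. With TAM against Rg3, 2 were called higher and 6 lower, where 27.0% of 16493 genes were called higher and 31.0% lower. The median log2 fold change of the 10 genes was 0.62 for Rg3 against control, -0.12 for TAM against control and -0.74 for TAM against Rg3, while the median over all genes compared was 0.04, -0.02 and -0.08. The 3 comparisons share libraries and are not independent of each other. With the GC and length trend removed, the medians of the 10 genes were 0.11, 0.21 and -0.08, and the calls came to 2 higher and 0 lower for Rg3 (5.12% and 6.66% of all genes), 1 higher and 0 lower for TAM (10.6% and 11.2%), and 1 higher and 2 lower for TAM against Rg3 (16.7% and 15.0%). Under edgeR's exact test at an assumed biological variation of 0.2, 0 of 10 passed against control in either direction, for Rg3 and for TAM, so every call against control below holds for counting error only.

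**Figure D2:**
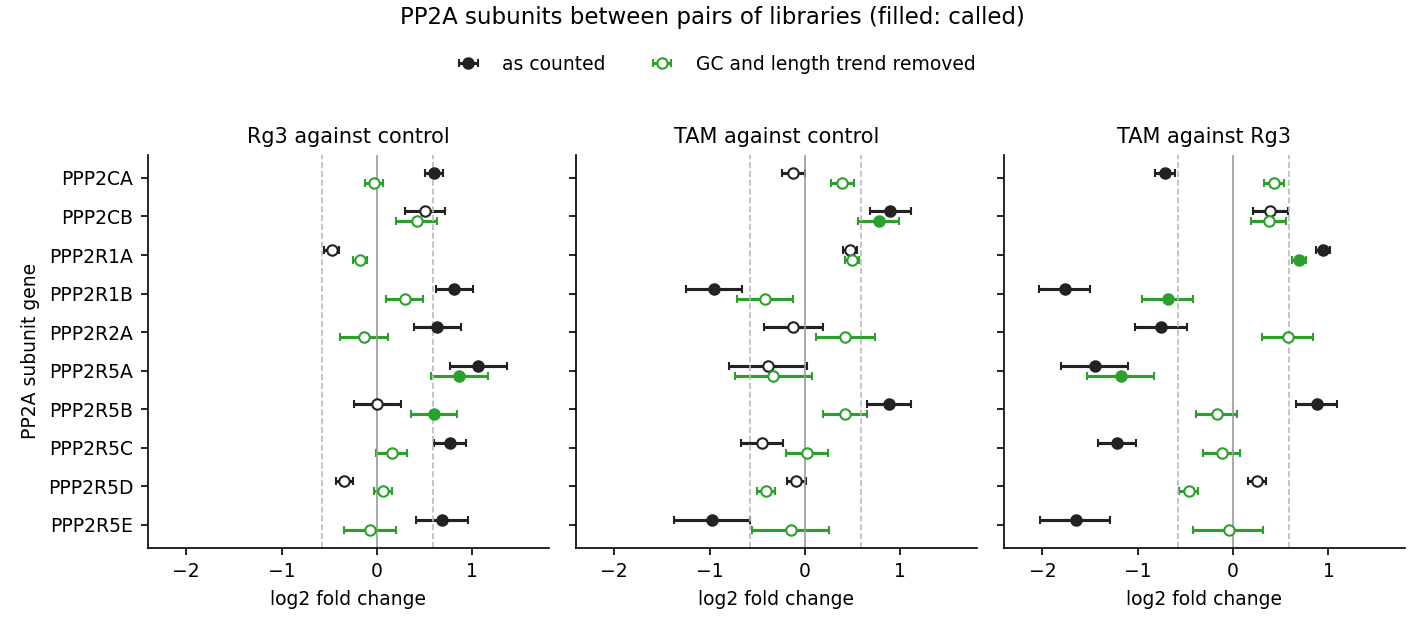
Log2 fold changes of the 10 PP2A genes in 3 pairs of libraries, as counted (black) and with the GC and length trend removed (green), with exact 95% intervals for counting error, filled points for called genes and dashed lines at the fold limits of 1.5 and 0.67. PPP2R5A with Rg3 (1.06 and 0.86) and PPP2CB with TAM (0.90 and 0.77) are filled in both colours, while PPP2CA with Rg3 moves from 0.60 to -0.03.

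The catalytic subunit genes were both above control with Rg3 and parted with TAM. PPP2CA, which encodes the alpha isoform of the catalytic subunit (GC content 41.3%), had 1347 counts in control, 2555 with Rg3 and 1074 with TAM, or 117, 177 and 108 scaled CPM, that is CPM after TMM scaling. The Rg3 library was highest, and control and TAM lay close together. PPP2CA was called higher with Rg3, just inside the fold limit, at a log2 fold change of 0.60 (95% interval 0.50 to 0.69, adjusted p = 1.3e-34, exact binomial test). TAM against control gave -0.12 (-0.24 to -0.0038, adjusted p = 0.073, exact binomial test), which was not called. With the GC and length trend removed, PPP2CA stood at -0.03 with Rg3 and 0.39 with TAM, and neither was called.

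PPP2CB, the beta isoform (GC content 48.0%), had 289 counts in control, 514 with Rg3 and 466 with TAM, or 25.2, 35.7 and 46.8 scaled CPM. Both treated libraries were above control. With Rg3 the fold of 1.42 stayed under the limit (log2 0.50, 0.29 to 0.72, adjusted p = 4.7e-06, exact binomial test), and it passed the limit when libraries were scaled by their totals (0.64). With TAM it was called higher at 0.90 (0.68 to 1.11, adjusted p = 2.9e-16, exact binomial test). This call held with the trend removed (0.77), and PPP2CB was the only 1 of the 10 genes called for TAM against control in that fit.

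A share within a pair of genes does not depend on the scaling between libraries. Per kilobase, PPP2CA made up 66.8% of the catalytic transcripts in control (95% interval 63.9 to 69.6, exact Clopper-Pearson), 68.2% with Rg3 (66.1 to 70.3) and 49.9% with TAM (47.1 to 52.6). Rg3 and control overlapped (difference 1.41 percentage points, adjusted p = 0.49, Fisher's exact test over 21 share comparisons), so this depth could not resolve a difference. TAM minus control was -16.9 percentage points (adjusted p = 1.3e-16, Fisher's exact test). The transcript mixture of the catalytic subunit therefore held as much PPP2CB as PPP2CA in the TAM library on this length scale. With the union of exons the ratio of PPP2CA to PPP2CB was 3.72 in control and 1.84 with TAM, against 2.01 and 0.994 with the longest transcript. The share is not free of base composition or length. PPP2CA and PPP2CB differ in both, at 41.3% and 48.0% GC and 4649 and 2006 bases. With the GC and length trend removed, TAM against control gave 0.39 for PPP2CA and 0.77 for PPP2CB, beside -0.12 and 0.90 as counted. The summed catalytic level was 37.8 scaled CPM per kilobase of the longest transcript in control, 55.96 with Rg3 and 46.6 with TAM. The distance of TAM from control depended on the length used. Per kilobase of the union of exons the sums were 26.3, 39.2 and 29.4, and per kilobase of the median coding transcript 237, 355 and 252.

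The scaffold genes lay on opposite sides of control in both treatments. PPP2R1A, the alpha scaffold and the main A subunit of most cells (GC content 53.7%), had 2971 counts in control, 2683 with Rg3 and 3571 with TAM, or 259, 186 and 359 scaled CPM. It was the most heavily counted of the 10 genes. Neither treatment reached the fold limit, with a log2 fold change of -0.47 for Rg3 (-0.55 to -0.40, adjusted p = 1.0e-33, exact binomial test) and 0.47 for TAM (0.40 to 0.54, adjusted p = 1.8e-38, exact binomial test). Between the treated libraries it was called higher with TAM than with Rg3 at 0.95 (0.87 to 1.02, adjusted p = 1.5e-145, exact binomial test). That call stayed at 0.69 with the GC and length trend removed and was lost with the GC trend alone removed (0.49).

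PPP2R1B, the beta scaffold and the minor A subunit (GC content 42.8%), had 310 counts in control, 683 with Rg3 and 139 with TAM, or 27.0, 47.4 and 14.0 scaled CPM. The 3 intervals do not overlap, with Rg3 highest and TAM lowest. It was called higher with Rg3 at 0.81 (0.62 to 1.01, adjusted p = 2.0e-16, exact binomial test) and lower with TAM at -0.95 (-1.25 to -0.66, adjusted p = 1.7e-10, exact binomial test). Between the treated libraries it showed the largest fold of the 10 genes, with TAM below Rg3 at -1.76 (-2.04 to -1.50, adjusted p = 1.5e-48, exact binomial test), or 3.40-fold. With the GC and length trend removed, the differences from control were 0.29 and -0.41 and were not called, while TAM against Rg3 was called at -0.68. With the GC trend alone removed, TAM against control stayed called lower at -0.62 (adjusted p = 6.6e-05, exact binomial test).

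PPP2R1A therefore took different shares of the scaffold transcripts in each library. Its share per kilobase was 90.9% in control (89.8 to 91.8), 80.3% with Rg3 (78.9 to 81.6) and 96.4% with TAM (95.7 to 97.0), and these intervals do not overlap. The difference from control was -10.6 percentage points with Rg3 (adjusted p = 3.5e-35, Fisher's exact test) and 5.52 with TAM (adjusted p = 5.7e-22, Fisher's exact test). Put as a ratio per kilobase, PPP2R1A exceeded PPP2R1B by 9.95 in control, 4.08 with Rg3 and 26.7 with TAM. A share is free of the library scaling but not of base composition, and the genes of this pair differ in GC content by their 53.7% and 42.8%. The summed scaffold level was 52.9 scaled CPM per kilobase in control, 43.1 with Rg3 and 69.2 with TAM, since PPP2R1A carried most of it.

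**Figure D3:**
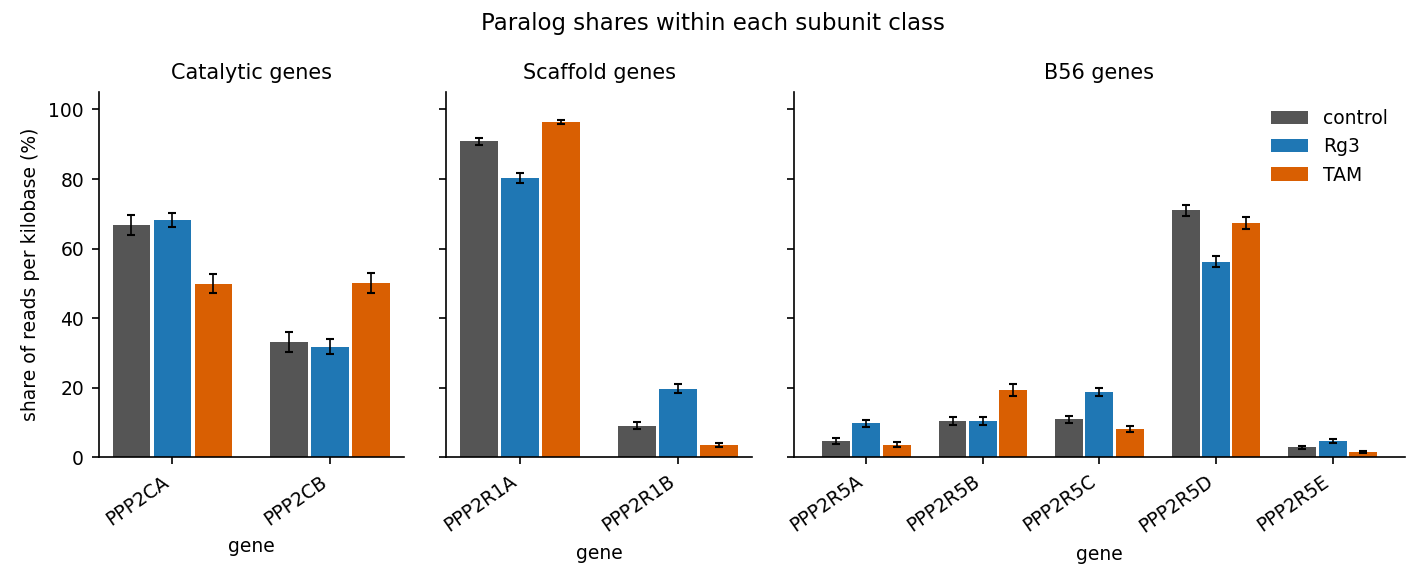
Share of reads per kilobase of the longest transcript (%) of each gene within the catalytic, scaffold and B56 classes. Bars stand for the control, Rg3 and TAM libraries, with exact 95% intervals for counting error. PPP2CA falls to 49.9% of the catalytic class with TAM, PPP2R1B takes 19.7% of the scaffold class with Rg3 and 3.61% with TAM, and PPP2R5D holds 56.3% to 71.0% of the B56 class.

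PPP2R2A, the B55 alpha regulatory subunit that acts on mitotic cyclin-dependent kinase substrates (GC content 38.6%), had 202 counts in control, 393 with Rg3 and 161 with TAM, or 17.6, 27.3 and 16.2 scaled CPM. Only the Rg3 library stood apart. It was called higher with Rg3 at 0.63 (0.39 to 0.89, adjusted p = 9.1e-07, exact binomial test), and TAM against control gave -0.12 (-0.43 to 0.18, adjusted p = 0.53, exact binomial test). With the trend removed the value with Rg3 was -0.14 and that with TAM 0.42, neither called.

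Among the B56 genes, PPP2R5A, PPP2R5C and PPP2R5E were called higher with Rg3, PPP2R5B was called higher with TAM and PPP2R5E lower with TAM. PPP2R5A, the B56 alpha subunit (GC content 46.7%), had 131 counts in control, 343 with Rg3 and 87 with TAM, or 11.4, 23.8 and 8.74 scaled CPM. Control and TAM overlapped, and Rg3 lay above both. Its log2 fold change of 1.06 with Rg3 (0.77 to 1.36, adjusted p = 4.5e-13, exact binomial test) was the largest of the 10 genes against control, a fold of 2.09. It kept its call with the trend removed, at 0.86 (0.57 to 1.16, adjusted p = 1.9e-08, exact binomial test). TAM against control gave -0.38 (-0.79 to 0.02, adjusted p = 0.096, exact binomial test), not called, and TAM against Rg3 gave -1.45, called lower with and without the trend (-1.18).

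PPP2R5B, the B56 beta subunit and the gene of highest GC content here (60.9%), had 254 counts in control, 320 with Rg3 and 406 with TAM, or 22.1, 22.2 and 40.8 scaled CPM. The intervals of control and Rg3 overlapped, and TAM was above both. TAM against control was called higher at 0.88 (0.65 to 1.11, adjusted p = 6.3e-14, exact binomial test), and Rg3 against control gave 0.01 (-0.24 to 0.25, adjusted p = 0.99, exact binomial test). Removing the trend exchanged these calls. Rg3 against control became 0.60 (0.36 to 0.84), just inside the limit, since genes of this GC content lay at about -0.58 on the trend, and TAM against control became 0.42 and was no longer called.

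PPP2R5C, the B56 gamma subunit, known for dephosphorylating p53 (GC content 41.5%), had 439 counts in control, 935 with Rg3 and 278 with TAM, or 38.2, 64.9 and 27.9 scaled CPM. The intervals of the 3 libraries do not overlap. It was called higher with Rg3 at 0.76 (0.60 to 0.93, adjusted p = 5.3e-20, exact binomial test). TAM against control gave -0.45 (-0.67 to -0.23, adjusted p = 0.00011, exact binomial test), within the fold limit, and it passed the limit with library totals (-0.66). With the trend removed the values were 0.15 and 0.02.

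PPP2R5D, the B56 delta subunit (GC content 55.5%), had 1926 counts in control, 1908 with Rg3 and 1568 with TAM, or 168, 133 and 158 scaled CPM. Control and TAM overlapped, and Rg3 lay below both. The log2 fold change was -0.34 with Rg3 (-0.43 to -0.25, adjusted p = 1.7e-12, exact binomial test) and -0.09 with TAM (-0.19 to 0.01, adjusted p = 0.11, exact binomial test), and neither was called. With the trend removed it was 0.07 and -0.41. Exons of PPP2R5D overlap those of MEA1 on the opposite strand over 1194 bases, and whether the counting used strand is not given in the sources used here, so its reads cannot be told apart from those of MEA1 in that stretch.

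PPP2R5E, the B56 epsilon subunit (GC content 38.8%), had 174 counts in control, 350 with Rg3 and 77 with TAM, or 15.2, 24.3 and 7.74 scaled CPM. Its 77 counts with TAM were the lowest count of the 10 genes in any library, and the order was Rg3, control, TAM without overlap. It was called higher with Rg3 at 0.68 (0.42 to 0.95, adjusted p = 7.8e-07, exact binomial test) and lower with TAM at -0.97 (-1.38 to -0.57, adjusted p = 1.8e-06, exact binomial test). With the trend removed the values were -0.07 and -0.14, and neither was called. Its longest transcript, 6659 bases, is also the longest of the 10, and across all genes the log2 fold change for TAM against control fell with length (rho -0.45).

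The summed B56 level was 77.6 scaled CPM per kilobase of the longest transcript in control, 77.4 with Rg3 and 76.8 with TAM. It depended on the length used, since per kilobase of the median coding transcript it was 143, 172 and 144, and per kilobase of the union of exons 64.5, 59.98 and 64.7. Per kilobase of the longest transcript, PPP2R5D held 71.0% of the class in control, 56.3% with Rg3 and 67.4% with TAM. PPP2R5A took 4.70%, 9.84% and 3.64%, PPP2R5C 10.99%, 18.7% and 8.12%, PPP2R5E 2.93%, 4.72% and 1.51%, and PPP2R5B 10.4%, 10.5% and 19.3%. These shares are not free of base composition or length, since GC content ran from 38.8% in PPP2R5E to 60.9% in PPP2R5B. With the GC and length trend removed, log2 fold changes for Rg3 were 0.86 (PPP2R5A), 0.60 (PPP2R5B), 0.15 (PPP2R5C), 0.07 (PPP2R5D) and -0.07 (PPP2R5E). In the same order they were -0.33, 0.42, 0.02, -0.41 and -0.14 for TAM. With Rg3 the read shares of PPP2R5A, PPP2R5C and PPP2R5E were larger and that of PPP2R5D smaller than in control (adjusted p from 9.9e-41 to 2.3e-06, Fisher's exact test), and no difference was detectable for PPP2R5B (adjusted p = 0.57, Fisher's exact test). With TAM the read share of PPP2R5B was larger than in control (16.8% against 8.69% of reads, adjusted p = 8.5e-19, Fisher's exact test). Those of PPP2R5C and PPP2R5E were smaller (adjusted p = 0.00022 and 2.4e-06, Fisher's exact test), and those of PPP2R5A and PPP2R5D did not pass the test (adjusted p = 0.13 and 0.49, Fisher's exact test; PPP2R5D 64.9% against 65.9% of reads). In all, 17 of the 21 share comparisons passed an adjusted p of 0.05. They share libraries, and the shares within a class depend on each other, so they are not independent. Variation between cultures does not enter this test.

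The calls of the 10 genes for Rg3 against control lined up with base composition. The 6 genes called higher with Rg3 had GC contents of 38.6% to 46.7%, and the 4 not called had 48.0% to 60.9%. For TAM against control the ranges overlapped. The 2 genes called lower had 38.8% and 42.8% and the 2 called higher 48.0% and 60.9%, while the 6 not called spanned 38.6% to 55.5%. Over the 10 genes, Spearman's rho between GC content and the log2 fold change was -0.56 for Rg3 against control, 0.67 for TAM against control and 0.64 for TAM against Rg3, given as descriptions without a p-value. At the GC content of the 6 genes called higher with Rg3, the trend over all genes ran from 0.21 to 0.76. PPP2CA (trend 0.61), PPP2R2A (0.76) and PPP2R5E (0.75) therefore had the fold of an ordinary gene of their composition. PPP2R5A (0.21) stood well above its own. The part of base composition in the treatment differences cannot be told apart from that of the treatments, since each condition has 1 library.

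**Figure D4:**
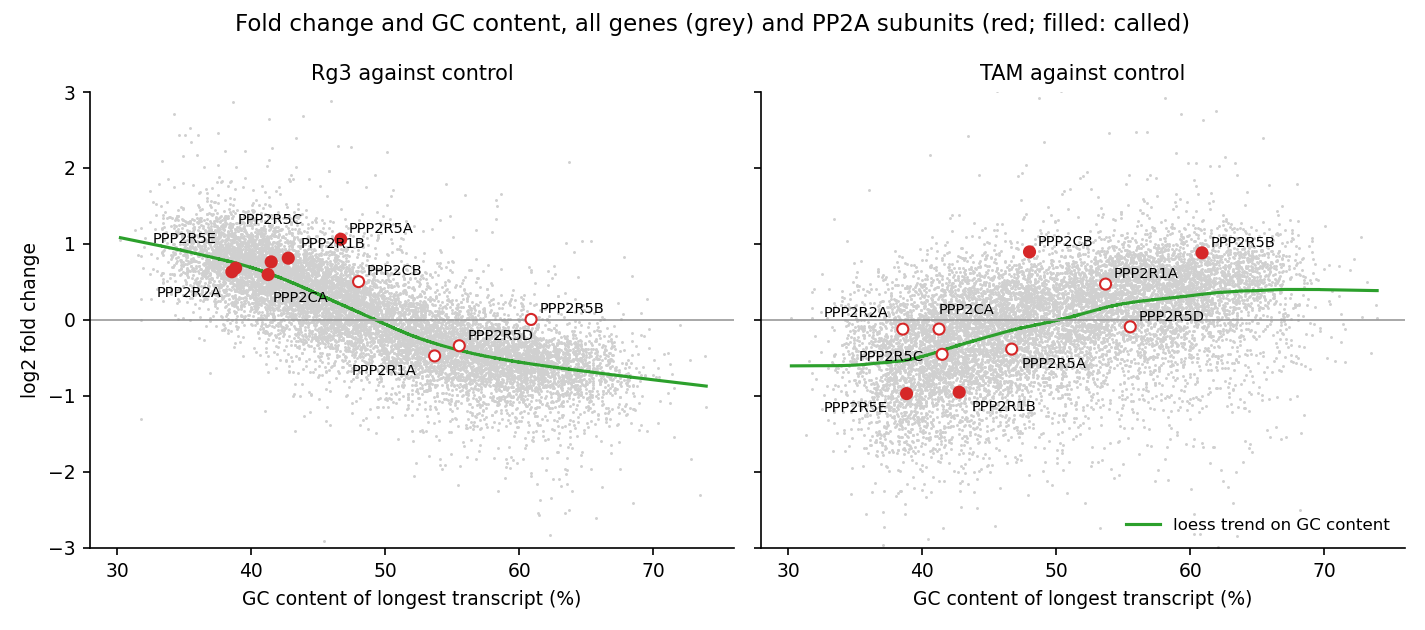
Log2 fold change against GC content (%) of the longest transcript for genes with at least 50 counts (grey), with the loess trend on GC content (green) and the 10 PP2A genes (red, filled where called), for Rg3 and for TAM against control. Genes beyond 3 in either direction or outside 28% to 76% GC lie off the axes. PPP2R5A with Rg3 and PPP2CB with TAM lie farthest above the trend among the called genes, and PPP2R1B with TAM lies below it.

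Stretches shared with other genes were searched in the sense direction of the transcripts only, so overlaps on the opposite strand are given apart. No stretch of 50 bases in the longest transcript of PPP2R1A, PPP2R2A, PPP2R5A, PPP2R5B or PPP2R5D recurred in a transcript of any other gene. For PPP2CA, 9.5% of the stretches recurred in transcripts of other genes, led by AC104109.3, which overlaps it on the same strand over 312 bases. For PPP2CB it was 3.32%, for PPP2R5C 5.17% and for PPP2R5E 2.30%, all in pseudogenes. For PPP2R1B it was 0.23%, in transcripts of 16 genes. On the opposite strand, exons of PPP2R1A overlap those of AC010320.2 over 710 bases, and exons of PPP2R5D those of MEA1 over 1194. Exons of PPP2R1B overlap those of SIK2 there over 150 bases, PPP2CA those of MIR3661 over 93 and PPP2R5B those of GPHA2 over 3. The table counts the pseudogenes PPP2CBP1 (12, 21 and 17 counts in control, Rg3 and TAM) and PPP2R5CP (36, 78 and 22 counts) separately. These were 3.65% to 4.15% of the PPP2CB counts and 7.91% to 8.34% of the PPP2R5C counts, and adding them changed none of the calls of these 2 genes.

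Around the core enzyme, 71 further genes in 7 lists were examined, of which 66 had enough counts to compare. With Rg3 against control 23 were called higher and 5 lower (median 0.38), beside 20.5% and 15.8% of all genes. With TAM against control 6 were called higher and 20 lower (median -0.30), beside 14.0% and 18.4%, and with TAM against Rg3 11 higher and 35 lower (median -0.75), beside 27.0% and 31.0%. With the GC and length trend removed, 0 were called higher and 1 lower for Rg3, 2 higher and 5 lower for TAM, and 4 higher and 10 lower for TAM against Rg3, and the shares of all genes were 5.12% and 6.66%, 10.6% and 11.2%, and 16.7% and 15.0%. Calls over all genes also fell with the trend removed, from 3377 higher and 2606 lower to 743 and 967 for Rg3.

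The other regulatory subunits divided within the striatin family, the scaffolds of the STRIPAK complex of PP2A with germinal centre kinases. STRN was called higher with Rg3 (350 counts in control, 898 with Rg3, log2 1.03) and lower with TAM (132 counts, -1.20), and STRN3 likewise (1.04 and -0.84). STRN4 went the other way, lower with Rg3 (-0.74) and higher with TAM (0.59). The PR72 family member PPP2R3B was called lower with Rg3 (232 to 141 counts, -1.05), and PPP2R3C was called higher (0.87). Of 8 genes compared in this list, Rg3 gave 3 higher calls and 2 lower, beside 20.5% and 15.8% of all genes. TAM gave 1 higher and 3 lower, beside 14.0% and 18.4%. Without the trend 0 of the 8 were called against control.

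The STRIPAK partners had 6 of 11 called higher and 1 lower for Rg3 (median 0.70), beside 20.5% and 15.8% of all genes. For TAM they had 1 higher and 4 lower (median -0.54), beside 14.0% and 18.4%. With the GC and length trend removed, 0 of the 11 were called with Rg3, and the medians were -0.0073 with Rg3 and 0.11 with TAM. SIKE1 (1.25), MOB4 (1.12), FGFR1OP2 (1.00) and PDCD10 (0.95) led with Rg3. STK26, a kinase of the complex, fell from 343 counts in control to 91 with TAM (-1.71), and STRIP2 from 40 to 11 (-1.66), and these were the members of the list still called with the trend removed (-1.22 and -1.29).

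Of 5 factors that assemble and methylate PP2A, Rg3 gave 1 higher call and 0 lower, beside 20.5% and 15.8% of all genes. TAM gave 1 higher and 0 lower, beside 14.0% and 18.4%. PTPA (listed as PPP2R4), the activator that prepares the catalytic subunit, was called higher with TAM (3337 to 4841 counts, 0.74) and gave -0.56 with Rg3. LCMT1, the methyltransferase of the catalytic tail, gave -0.0024 with Rg3 and 0.49 with TAM. PPME1, the methylesterase that reverses it, gave -0.44 and -0.07, and was the single gene of the 7 lists called with Rg3 after removal of the trend (-0.77). TIPRL, a binding partner of PP2A-type catalytic subunits, was called higher with Rg3 (0.72). With the GC and length trend removed, PTPA with TAM (0.32) and TIPRL with Rg3 (-0.098) were not called.

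Among 8 PP2A inhibitors, 3 were called higher with Rg3 and 1 lower with TAM, beside 20.5% and 18.4% of all genes in those directions. The Greatwall kinase gene MASTL rose with Rg3 (128 to 329 counts, 1.04), as did CIP2A (listed as KIAA1524, 178 to 403 counts, 0.85) and ARPP19 (0.71), a B55 inhibitor that MASTL activates. ARPP19 was lower with TAM (-0.65), where MASTL gave -0.32 and CIP2A -0.24, not called. ENSA, the partner of ARPP19, gave 0.19 with Rg3 and 0.53 with TAM, not called. SET, an inhibitor that binds the catalytic subunit, gave 0.56 with Rg3, under the fold limit, and 0.13 with TAM. With the trend removed 0 inhibitors were called with Rg3, and ENSA was called higher with TAM (0.62).

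PP4 and PP6 are the closest relatives of PP2A among the phosphatases. PPP4C, the PP4 catalytic subunit, was called higher with TAM (3466 to 4943 counts, 0.72) and gave -0.45 with Rg3, while PPP6C gave 0.56 with Rg3 and -0.38 with TAM, not called. Regulatory genes of this list called higher with Rg3 included PPP4R2 (1.28), PPP4R4 (1.04), PPP4R3B (listed as SMEK2, 0.74) and PPP6R3 (0.73). With TAM, PPP4R4 (-1.46), ANKRD28 (-1.40), PPP6R3 (-0.88) and ANKRD44 (-0.85) were lower, and ANKRD28 kept its call with the trend removed (-0.71). Of 13 genes, Rg3 gave 5 higher calls and 0 lower, beside 20.5% and 15.8% of all genes. TAM gave 2 higher and 5 lower, beside 14.0% and 18.4%. With the GC and length trend removed, 0 of the 13 were called with Rg3 (median 0.10).

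Among other serine/threonine phosphatase catalytic subunits, the PP1 genes PPP1CC (0.88) and PPP1CB (0.76) were called higher with Rg3, the calcineurin gene PPP3CA was lower with TAM (-0.91) and PPP5C higher with TAM (0.74, and 0.62 with the trend removed). Of 7 genes, Rg3 gave 2 higher calls, beside 20.5% of all genes, and TAM gave 1 in each direction, beside 14.0% higher and 18.4% lower. Genes of the ERK, JNK, PKC and NF-kB pathways, taken from the pathways that the study names as repressed by PP2A, gave 3 calls higher and 2 lower of 14 for Rg3, while TAM gave 0 higher and 6 lower. The counts for Rg3 are near the shares of all genes called, 20.5% higher and 15.8% lower, and those for TAM stand beside 14.0% and 18.4%. CHUK (1.30) and PRKCI (0.96) were higher and MAPK3 (-0.71) and PRKCD (-0.67) lower with Rg3. PRKCH (31 to 8 counts, -1.75), PRKCI (-0.96) and MAPK8 (-0.80) were lower with TAM, as was PRKCD (-0.67), and with the trend removed PRKCH (-1.77) and PRKCD (-1.03) kept their calls.

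**Figure D5:**
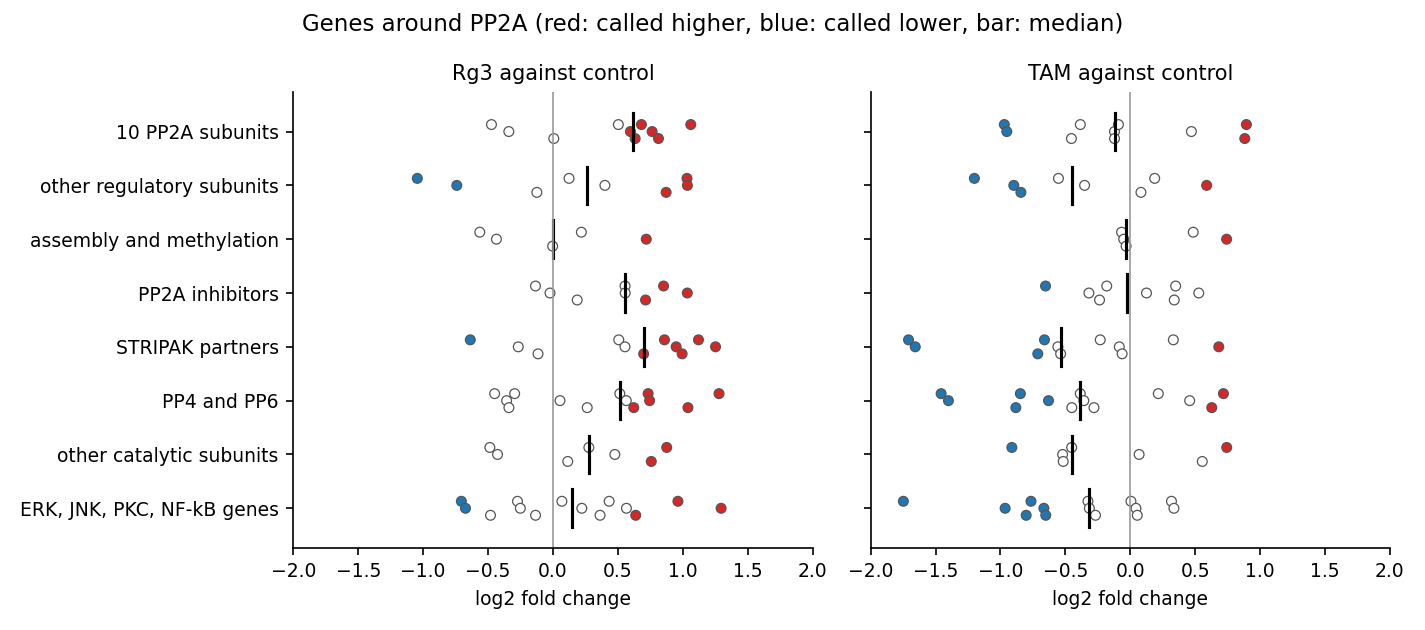
Log2 fold changes of the 10 PP2A subunits and of the compared genes of 7 related lists, for Rg3 and for TAM against control, with red points called higher, blue points called lower, open points not called and a bar at the median. The subunit median is 0.62 with Rg3 and -0.12 with TAM, and the STRIPAK partners have medians of 0.70 and -0.54. With the GC and length trend removed, which is not drawn, the medians are 0.11 and 0.21 for the subunits and -0.0073 and 0.11 for the STRIPAK partners.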

How the data were processed

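RNA was sequenced on the Ion Proton in 3 PANC-1 libraries (control, Rg3 and TAM, 1 each, grouped by the agent in the labels). The authors checked reads with FAST-QC, aligned them with TopHat, named MAQ for assembly, and the deposited values are raw counts, 1 row a gene symbol, not normalized. The submitters' processing notes name GRCh38. The counting tool, annotation and strand setting are not given in the sources used here. All value columns belonged to a library.

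Fold changes (log2) were taken in Python 3.11.15 (scipy 1.17.1) after TMM scaling (edgeR 4.0.16 in R 4.3.3), with factors of 1.02 for control, 1.12 for Rg3 and 0.879 for TAM. Counts under 3 were set to 3 for a fold. Calls used the exact binomial test, an adjusted p below 0.05 and a fold above 1.5 or below 0.67, for genes with 10 counts or more in 1 of both libraries. The Limma test of the study, and edgeR's quasi-likelihood test, need replicates and could not be fitted. Intervals (95%) and limits from a count of 0 cover counting error only, and depth was 11300766 to 12861693 counts. GC content and length came from the longest GENCODE 29 transcript and were found for 88.0% of genes compared for Rg3, 88.5% for TAM and 87.9% for TAM against Rg3. Alternatives were library totals, DESeq2 1.42.0 size factors, a filter of 1 or 50 counts, calls by fold only, edgeR's exact test at a biological variation set to 0.2 or 0.4, removal of a loess trend (span 0.3), other gene lengths, read shares and, added after seeing the data, pseudogene reads and median coding lengths. The steps were tested on simulated data.

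The 10 genes, the 7 lists and the tests were chosen with earlier results of these data known. Named genes are the 10 subunits, up to 4 called genes per list and comparison with at least 50 counts in 1 library and the largest fold, and 10 genes named by choice whatever their values, and 1 gene that the rule names is not reported here. Promoter sequences are those of RefSeq (GRCh38.p14).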

Additional observations from a re-analysis of the deposited data

How the results depend on the processing

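No paired analysis was possible because only 1 library exists for each condition, and no library could be left out for the same reason. Filters of 1 or 50 counts, the fold alone and DESeq2 size factors kept the number of PP2A genes called in each direction. With library totals, 2 were called higher and 4 lower for TAM against control, 1 higher and 6 lower for TAM against Rg3, and 7 higher and 0 lower for Rg3 against control. The related genes with library totals came to 2 lower for Rg3 and 0 higher for TAM. Library totals moved the share of calls that are higher over all genes from 56.4% to 71.4% for Rg3, from 43.1% to 20.6% for TAM (1120 higher) and from 46.6% to 28.7% for TAM against Rg3 (2718 higher).

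With an assumed variation of 0.2, edgeR's exact test called 0 PP2A genes in either direction against control, and 0 higher and 4 lower for TAM against Rg3. The related genes came to 0 higher and 0 lower for Rg3 and to 0 higher and 2 lower for TAM. Over all genes it called 64 higher and 92 lower for Rg3, 109 and 365 for TAM, and 2156 and 2939 for TAM against Rg3. With 0.4, it called 0 PP2A genes and 0 related genes in every comparison, and over all genes 0 higher and 1 lower for Rg3, 0 and 1 for TAM, and 0 and 0 for TAM against Rg3. Replicates would be needed to know which variation applies.

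With the GC trend alone removed, the PP2A genes called were 2 higher and 0 lower for Rg3, 1 higher and 1 lower for TAM, and 1 higher and 2 lower for TAM against Rg3, and with the GC and length trend 2 and 0, 1 and 0, and 1 and 2. The related genes were 0 higher and 1 lower for Rg3, 1 and 7 for TAM, and 3 and 13 for TAM against Rg3, and with length as well 0 and 1, 2 and 5, and 4 and 10. All genes called fell to 733 higher and 979 lower, 1640 and 1973, and 2565 and 2513, and with length as well to 743 and 967, 1502 and 1592, and 2427 and 2178.

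Log2 fold changes that turned sign, with the GC and length trend and with the GC trend alone removed, were, for Rg3 against control, those of PPP2CA (-0.027 and -0.018), PPP2R2A (-0.14 and -0.13), PPP2R5D (0.066 and 0.059) and PPP2R5E (-0.074 and -0.067). For TAM against control they were PPP2CA (0.39 and 0.30), PPP2R2A (0.42 and 0.42) and, with both trends only, PPP2R5C (0.024). For TAM against Rg3 they were PPP2CA (0.43 and 0.32), PPP2R2A (0.57 and 0.55), PPP2R5B (-0.17 and -0.039) and PPP2R5D (-0.47 and -0.37, and -0.10 with library totals). The share of PPP2R5B in the B56 class with Rg3 was 0.08 percentage points above control per kilobase and -0.39 by raw reads. Beyond what each alternative removes by construction, the cause was not tested.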
